A study of Mus musculus with 6 samples.

Results

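The tissue kallikrein Klk1 cluster is a row of near-identical serine protease genes on mouse chromosome 7. It was followed here in bone marrow cells that grew into dendritic cells (DC). Of 12 cluster genes with a named probe, 10 were detected, by 17 of their 23 probes. All genes of the array numbered 19057. The probes were chosen by their gene symbol, Klk1 or a name starting with Klk1b, and by a detection p-value under 0.01 on at least 1 of the 6 arrays. The cluster itself was picked from the same data for its steep rise between the first stages, so that step is described and not tested. The 17 probes all had a detection p of 0 on the immature DC array with DMSO. The dimmest of them there was Klk1b26 ILMN_1217308, with a log2 level of 5.93, and its p on the other immature DC array was 0.00534. The nearest probe outside the limit was Klk1b5 ILMN_1255129, whose lowest p was 0.0299.

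Marrow cells of C57BL/6 mice were grown with GM-CSF at 20 ng/ml, the cytokine that all 6 cultures shared, and the study asked how a block of p38 MAP kinase in the progenitors changes the DC. Cells were taken at day 2 (pre-DC), at day 7 from the semi-adherent layer (immature DC), and after another 48 h with TNF-a and IL-1b, each at 10 ng/ml (mature DC). Each stage had 1 array from a culture with DMSO at 0.1%, the solvent control, and 1 from a culture with SB202190, a p38 inhibitor. The labels give its dose as 1.5 mM, a unit that is high for such an inhibitor and could not be checked. The labels do not say whether cultures were pooled from several mice, or whether the inhibitor was kept during maturation.

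Tissue kallikreins are secreted, trypsin-like proteases. Klk1, the family's best-known member, frees kinins from kininogens, and the mouse carries many extra copies made by duplication, known mostly from the salivary gland and kidney. Several copies bear names from growth factor biology in the RefSeq gene table. Klk1b3 and Klk1b4 are the gamma and alpha subunits of the nerve growth factor complex, and Klk1b9, Klk1b22 and Klk1b26 were named as epidermal growth factor binding proteins. Klk1b26 is also listed as a prorenin-converting enzyme. Of the 14 protein-coding copies in that table, Klk1b3 and Klk1b4 had no named probe here. Another 10 copies are pseudogenes. Because the copies are so alike, a probe may bind the transcript of more than 1 gene. Cross-binding was not tested, and each gene name below stands for the probe that carries it.

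The promoters show how alike the copies are. Each is 250 bases before to 50 bases after the annotated start in RefSeq, build GRCm38.p6. Klk1b11 and Klk1b27 are shown because their probes had the steepest differences between stages. Klk1b16 is shown because its probe was not detected on any array although 91.6% of its aligned bases (273 of 298) equal those of Klk1b11. Capitals mark TTTAAA, a variant of the TATA box.
Klk1b11 (chr7:43995627-43995926, + strand): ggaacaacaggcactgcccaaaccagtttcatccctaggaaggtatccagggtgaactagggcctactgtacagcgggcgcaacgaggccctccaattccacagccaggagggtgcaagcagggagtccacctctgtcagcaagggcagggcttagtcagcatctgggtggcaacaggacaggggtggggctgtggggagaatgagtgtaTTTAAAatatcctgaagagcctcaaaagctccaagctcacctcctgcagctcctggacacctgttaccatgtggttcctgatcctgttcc
Klk1b27 (chr7:44052040-44052339, + strand): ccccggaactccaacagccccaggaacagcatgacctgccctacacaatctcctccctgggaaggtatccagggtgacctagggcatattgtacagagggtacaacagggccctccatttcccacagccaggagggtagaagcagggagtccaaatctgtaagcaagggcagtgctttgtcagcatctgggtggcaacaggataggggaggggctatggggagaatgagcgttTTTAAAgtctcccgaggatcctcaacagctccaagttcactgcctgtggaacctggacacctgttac
Klk1b16 (chr7:44137040-44137339, + strand): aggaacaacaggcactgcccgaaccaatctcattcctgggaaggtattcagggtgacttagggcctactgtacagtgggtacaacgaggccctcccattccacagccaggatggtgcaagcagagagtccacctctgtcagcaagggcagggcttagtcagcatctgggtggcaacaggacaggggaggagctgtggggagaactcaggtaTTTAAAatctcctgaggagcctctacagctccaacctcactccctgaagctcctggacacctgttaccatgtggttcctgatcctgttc

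Over the 91 pairs of 14 promoters, the identity of aligned bases ran from 77.1% (Klk1b8 with Klk1) to 97.7% (Klk1b21 with Klk1b24), with a median of 85.2%. Klk1b27 shared 94.5% with Klk1b21 and 91.3% with Klk1b24. The letters TTTAAA, which read the same on both strands, stood in 13 of the 14 windows, and in 13.2% of all 32851 promoter windows of the table. Since the copies share an origin, the 13 are not independent cases. Klk1 was the one without, which says only that the letters are not in its window. That window ends in the bases that stand just before the box in Klk1b9 and Klk1b22, so it stops short of the place of the box there. None of the 14 held TATAAA (13.6% of all windows), TTCNNNGAA, the core of STAT sites (8.3%), or TGANTCA, the core of AP-1 sites (7.81%), on either strand. GAGGAA, a core of PU.1 sites, was in 1 of the 14, Klk1b8, against 28.3% of all windows. That GAGGAA lies 242 to 247 bases before the start and does not overlap TTTAAA. The box itself starts between 48 and 13 bases before the annotated start, except in Klk1b21, where it starts at base 4. The stretch around the box, 20 bases on each side, follows for the other detected genes, in their order along the chromosome.
Klk1b8 (chr7:43950602-43950647, + strand): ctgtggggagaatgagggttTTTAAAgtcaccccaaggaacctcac
Klk1b1 (chr7:43966698-43966743, + strand): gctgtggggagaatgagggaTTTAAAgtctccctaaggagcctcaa
Klk1b9 (chr7:43976008-43976053, + strand): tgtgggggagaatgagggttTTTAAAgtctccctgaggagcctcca
Klk1b26 (chr7:44012632-44012677, + strand): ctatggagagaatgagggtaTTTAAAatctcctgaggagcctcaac
Klk1b21 (chr7:44102276-44102321, + strand): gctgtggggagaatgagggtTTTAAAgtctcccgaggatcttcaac
Klk1b22 (chr7:44112613-44112658, + strand): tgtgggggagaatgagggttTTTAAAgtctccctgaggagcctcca
Klk1b24 (chr7:44188185-44188230, + strand): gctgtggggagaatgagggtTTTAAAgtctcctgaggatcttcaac
Klk1b5 (chr7:44216412-44216457, + strand): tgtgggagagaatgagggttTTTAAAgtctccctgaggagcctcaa

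**Figure D1:**
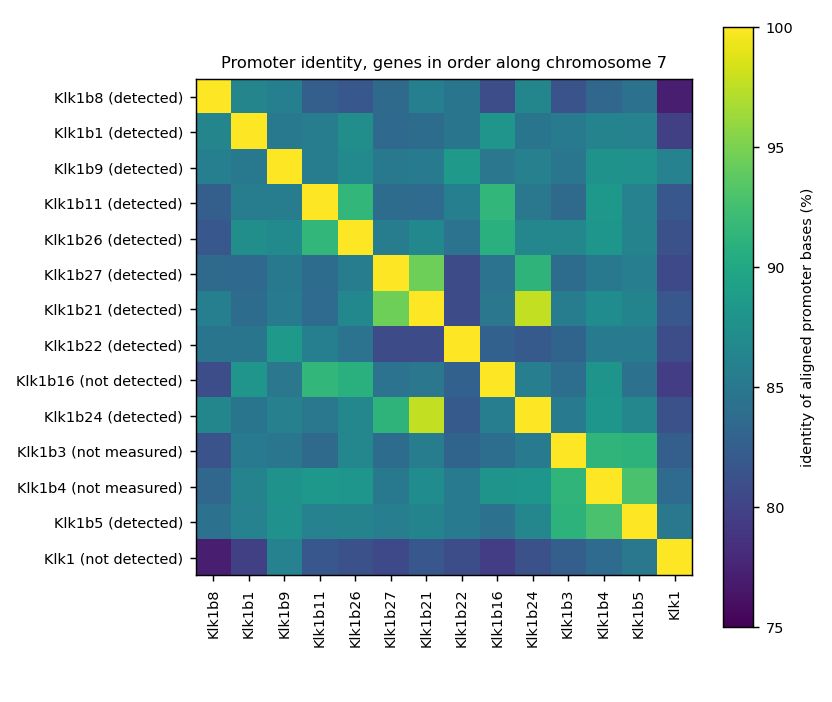
Identity of aligned promoter bases (colour, in percent) for each pair of the 14 protein-coding cluster genes, in order along chromosome 7, with row labels that say whether a probe was detected. Klk1b21, Klk1b24 and Klk1b27 share 91.3% to 97.7% with each other, although Klk1b22 and Klk1b16 lie between Klk1b21 and Klk1b24. The neighbours Klk1b3, Klk1b4 and Klk1b5 share 91.2% to 92.8%. The undetected Klk1 has the lowest median identity to the other 13.

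The gene order gave no simple split between detected and undetected copies. Klk1b16, named for a probe not detected on any array, lies between Klk1b22 and Klk1b24, both detected. Klk1, at the far end next to Klk1b5, was also not detected, with intensities from 107.3 to 152.9. The Klk1b16 probe read from 114.8 to 132.8, with no detection p under 0.112.

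Each of the 17 detected probes was higher in immature DC than in pre-DC and lower again in mature DC, in both treatments. Their levels in immature DC differed widely, and several probes stayed dim there. With DMSO and SB202190 in that order, the intensities ran from 181.8 and 153.5 (Klk1b26 ILMN_1217308) to 16807 and 18427 (Klk1b11 ILMN_2979432). Of the 23 probes, 5 and 6 were detected on the pre-DC arrays with DMSO and SB202190, 17 on each immature DC array, and 12 and 9 on the mature DC arrays. Immature DC was at least 2-fold above pre-DC in both treatments for 16 of the 17 detected probes, and for 10 without background correction. The main count compares with 8.28% of the 16624 probes tested, those detected on at least 2 arrays. The members were picked on this step, so the count describes the choice. The exception was Klk1b26 ILMN_1217308. The count uses the log2 differences as measured, also where a stage was below background. All folds here are of intensities corrected for background with an added constant of 16, which pulls folds of dim probes towards 1.

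Klk1b27, a kallikrein known from Leydig cells of the testis, gave the steepest difference. The deposited intensity of its probe ILMN_1252131 was 217.1 and 283.4 in pre-DC, 6898 and 6067 in immature DC, and 1234 and 728.9 in mature DC, with DMSO and SB202190 in that order. Immature DC stood far above both other stages, and no 2 stages overlapped. The mean log2 difference of immature DC from pre-DC was 5.82 (SD 0.56 over the 2 treatments), a 56.7-fold difference. Its other probe, ILMN_3009447, was below background on both pre-DC arrays and had 662.2 and 719.3 in immature DC, at least 13.1-fold higher. In mature DC this probe read 380 and 264.9.

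Klk1b11 showed the same course on both of its probes. Probe ILMN_2979432 read 478.2 and 859.1 in pre-DC, 16807 and 18427 in immature DC and 3844 and 2323 in mature DC, with DMSO and SB202190 in that order. Probe ILMN_2632912 read 188.9 and 256.8, then 4589 and 4698, then 842.4 and 477.8. Again the 3 stages did not overlap on either probe. The differences of immature DC from pre-DC were 5.26 (SD 0.55) and 5.67 (SD 0.52) on the log2 scale, or 38.4-fold and 50.8-fold.

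The 2 probes of Klk1b1 were close to each other throughout. On the log2 scale, ILMN_1256119 had 6.63 and 6.91 in pre-DC, 11.55 and 11.59 in immature DC and 10.14 and 9.75 in mature DC. ILMN_2989749 had 6.33 and 6.89, then 11.43 and 11.70, then 10.15 and 9.66. Immature DC was 27.8-fold and 31.1-fold above pre-DC. The treatments lay close together in immature DC, and no stages overlapped.

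Klk1b8 had a single probe, ILMN_1216962, with log2 levels of 5.25 and 5.52 in pre-DC, 9.33 and 9.48 in immature DC and 7.31 and 6.50 in mature DC. It was 16.2-fold higher in immature DC, although of the pre-DC arrays only the one with SB202190 detected it. Klk1b21, like Klk1b27 a testis kallikrein, was detected by 1 of its 3 probes. ILMN_1219551 was below background in pre-DC and had 8.25 and 8.40 in immature DC, at least 7.41-fold higher. The other Klk1b21 probes, ILMN_2651099 and ILMN_2732087, stayed below background on all 6 arrays, so the 3 probes of this gene disagree.

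Of the 6 probes for the copies named for growth factor binding, 4 were detected in immature DC alone. Klk1b9 ILMN_1254219 was below background in pre-DC, had log2 levels of 9.35 and 10.04 in immature DC, and had 6.49 and 6.54 in mature DC. Immature DC was at least 19.1-fold above pre-DC on this probe. The other Klk1b9 probes, ILMN_2723594 and ILMN_2784773, were detected on the immature DC arrays alone, at least 4.13-fold and 4.25-fold above pre-DC.

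Klk1b22 ILMN_2946653 was likewise detected in immature DC alone, at 7.00 and 7.40, at least 3.39-fold above pre-DC. Klk1b26 ILMN_1229177 had 6.87 and 7.08 in immature DC, at least 2.90-fold above pre-DC, and ILMN_1217308 had 5.93 and 5.59, at least 1.25-fold. The remaining detected probes were those of Klk1b24, at least 2.62-fold (ILMN_1256024) and 1.93-fold (ILMN_2622463) higher in immature DC, and 1 of 3 probes of Klk1b5, at least 3.94-fold (ILMN_2731191). These dim probes give bounds because neither pre-DC array measured them.

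**Figure D2:**
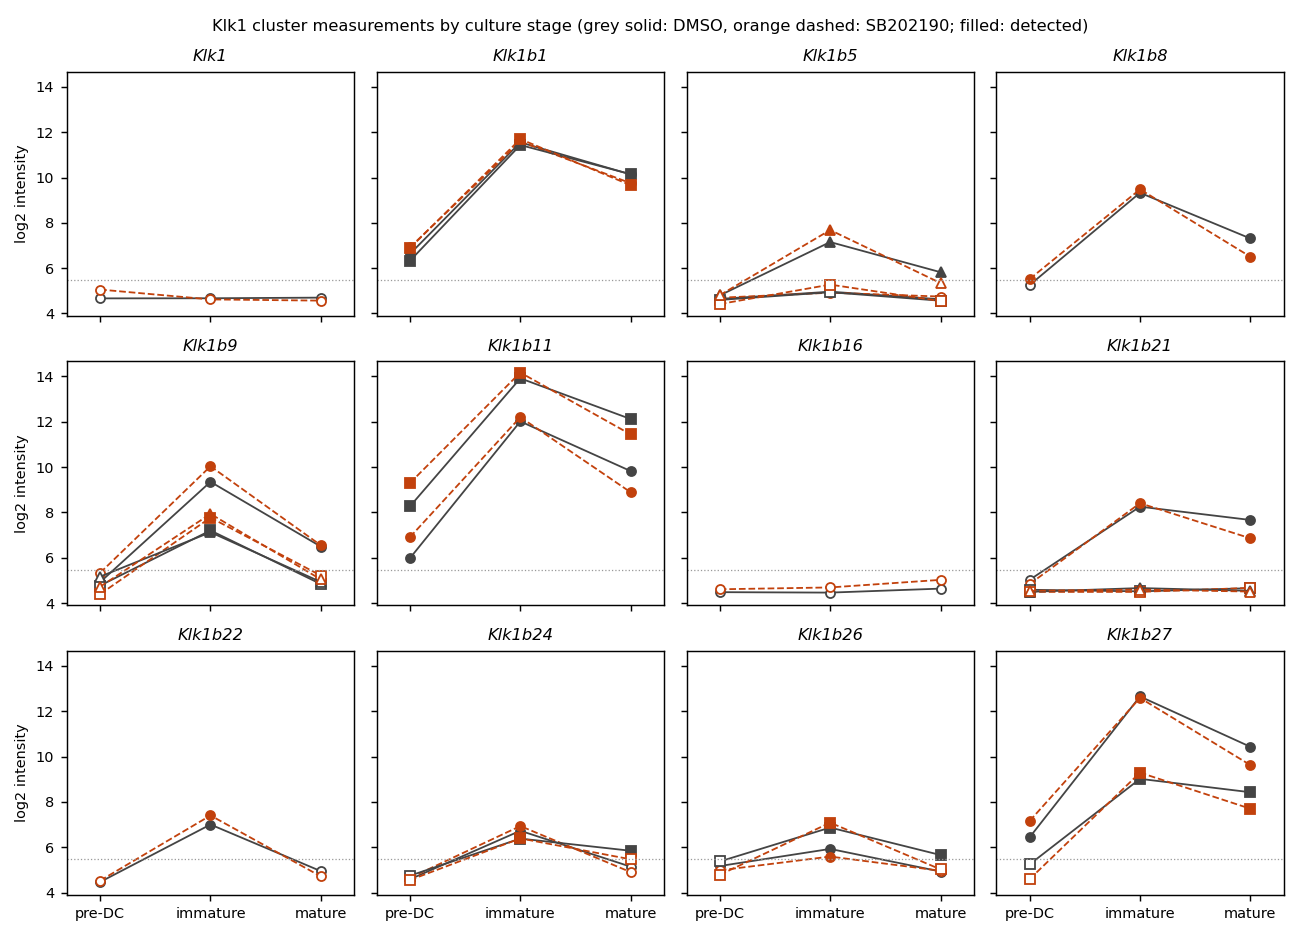
Log2 intensity of every probe of the 12 measured cluster genes at the 3 stages, 1 panel a gene, with grey solid lines for DMSO and orange dashed lines for SB202190. Marker shapes tell the probes of a gene apart, filled markers are detected, and the dotted line is the mean over arrays of the lowest signal among detected probes. Klk1b11 and Klk1b27 peak in immature DC near 14 and 12.6, while Klk1 and Klk1b16 stay below the line at every stage.

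After maturation the cluster was lower on every detected probe, by unequal amounts. Mature DC was at least 2-fold below immature DC in both treatments for 13 of the 17 probes, against 3.2% of all probes tested. The count was 7 without background correction and 8 in the authors' processed values. This step shares the immature DC arrays with the step the members were picked on, and no test was made. The median difference over the 17 probes was -1.84 on the log2 scale, and -0.01 over all probes tested. Klk1b9 ILMN_1254219 had the largest difference, -3.17, with -2.86 for DMSO and -3.49 for SB202190, a 9.03-fold lower level. Klk1b11 followed on ILMN_2632912, with -2.76 (6.75-fold), then Klk1b27 on ILMN_1252131, with -2.59 (6.03-fold).

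Among the probes still detected on at least 1 mature DC array, the smallest differences were those of Klk1b24 ILMN_2622463 (-0.73), Klk1b21 ILMN_1219551 (-1.07) and Klk1b27 ILMN_3009447 (-1.09). The promoters of these 3 genes share 91.3% to 97.7% of aligned bases, and a link with these differences was not tested. Klk1b24 ILMN_2622463 had only 6.38 and 6.39 in immature DC, and the lowest detected signals in mature DC were 5.44 and 5.57. That left little room for a larger measured difference, and the probe was below background in mature DC with SB202190. The other Klk1b27 probe had -2.59, so the probes of that gene disagree on the size. The other Klk1b24 probe was below background on both mature DC arrays, at least 2.503-fold lower than in immature DC. Mature DC remained at least 2-fold above pre-DC in both treatments on 8 of the 17 probes, where 11.6% of all probes tested did. The 8 probes were both of Klk1b1, both of Klk1b11, both of Klk1b27, that of Klk1b21 and Klk1b9 ILMN_1254219. The order of the stages was thus pre-DC, mature DC and immature DC for these 8. For Klk1b9 ILMN_2784773 and Klk1b26 ILMN_1229177 the pre-DC and mature DC arrays overlapped. The first was below background on all of these arrays and the second on all but mature DC with DMSO, so their levels cannot be compared.

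**Figure D3:**
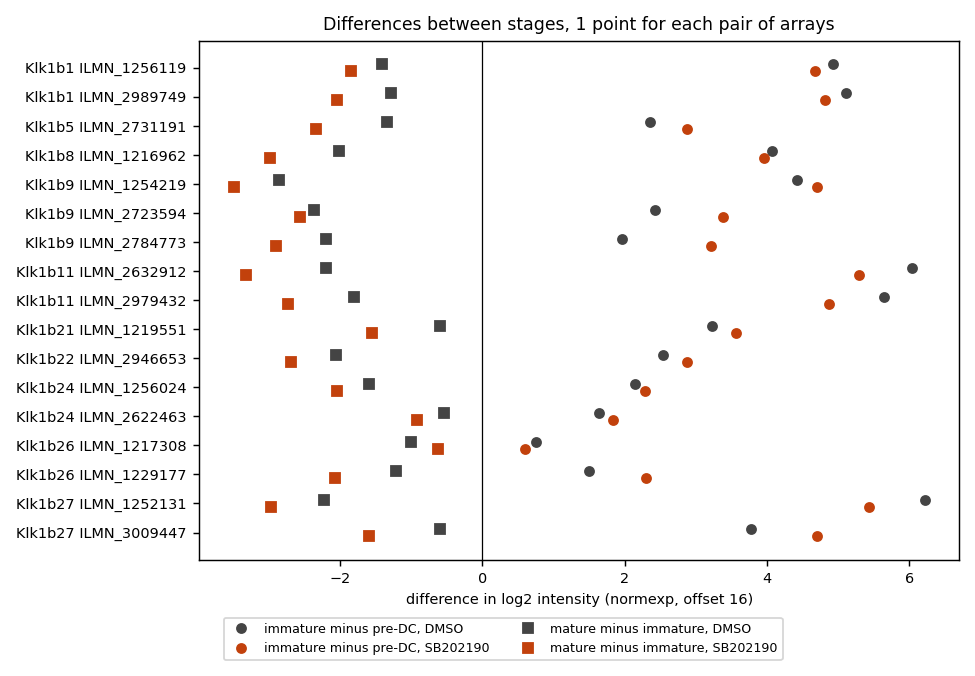
Difference in log2 intensity between stages for the 17 detected probes, with circles for immature minus pre-DC and squares for mature minus immature, grey for DMSO and orange for SB202190. All circles lie above 0 and all squares below it, and the orange square lies further left than the grey one for every probe but Klk1b26 ILMN_1217308.

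Between the inhibitor and its solvent, no cluster gene passed the test over all 3 stages. This contrast was not used to pick the members. In limma's additive model with stage as a block, 0 of the 17 probes reached an adjusted p of 0.05, as did 0% of all 16624 probes. Unadjusted, 1489 of the 16624 had a p under 0.05, and among the 17 only Klk1b9 ILMN_1254219 did. That probe had a mean log2 difference of 0.38 (SE 0.15, limma adjusted p = 0.543) and was higher with SB202190 in 3 of 3 pairs, though below background on both pre-DC arrays. The mean differences of the 17 probes ran from -0.37 for Klk1b27 ILMN_3009447 (SE 0.21) to 0.38. The former was -0.69 without either immature DC array and -0.19 or -0.20 without either mature DC array. Both pre-DC arrays read this probe below background, with a difference of -0.65. Its difference was 0.27 in immature DC and -0.73 in mature DC. The test counts a response that varies between stages as error, and leaves 2 residual degrees of freedom.

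Within the stages the differences did not point the same way. Only probes detected on both arrays of a pair were counted. In pre-DC, the 5 such probes were all higher with SB202190, by 0.29 to 1.03 on the log2 scale. In mature DC, 8 of 9 were lower with SB202190, with a median of -0.73. In immature DC, 15 of 17 were higher, with a median of 0.22. Of all probes so detected, 48.6% were lower with SB202190 in pre-DC, 49.1% in immature DC and 49.2% in mature DC. The probes share their genes' sequence and each pair of arrays, so these counts are not independent, and with 1 array on each side there is no test.

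Klk1b11 had the widest swing. With SB202190 its probe ILMN_2979432 was 2.04-fold higher in pre-DC, 1.19-fold higher in immature DC and 1.60-fold lower in mature DC. Probe ILMN_2632912 was 1.90-fold higher, 1.14-fold higher and 1.91-fold lower in the same order. The log2 difference of ILMN_2632912 in pre-DC was 0.41 without background correction, in place of 0.93. From pre-DC to mature DC, the difference was 14.5-fold with DMSO and 4.42-fold with SB202190 on the first probe, and 14.3-fold and 3.94-fold on the second.

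Klk1b27 ILMN_1252131 was 1.65-fold higher with SB202190 in pre-DC, 1.05-fold lower in immature DC and 1.75-fold lower in mature DC. Its pre-DC difference on the log2 scale, 0.72, was 0.36 without background correction. From pre-DC to mature DC the difference was 15.95-fold with DMSO and 5.53-fold with SB202190. Klk1b1 went the same way by less, with 1.22-fold and 1.48-fold higher levels in pre-DC and 1.31-fold and 1.40-fold lower ones in mature DC on its 2 probes. In mature DC, Klk1b8 was 1.75-fold lower, Klk1b21 1.75-fold lower and Klk1b27 ILMN_3009447 1.65-fold lower with SB202190.

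At a 1.5-fold limit, 3 of these 5 probes were higher with SB202190 in pre-DC, where 1.31% of all probes so detected were, and 6 of 9 were lower in mature DC, where 3.96% were. The counts were 1 of 5 and 3 of 9 if background was not corrected, and the same in the authors' processed values. The limits and directions within stages were set after the values were seen. Of the 5 probes detected on both arrays of both stages, 4 were at least 1.25-fold higher in pre-DC and at least 1.25-fold lower in mature DC, against 1.66% of all probes so detected. The mature DC array with SB202190 also had the fewest detected probes, 14623 of 45281, and the lowest median intensity, 120.5. The part of this in the cluster's values was not tested.

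Klk1b9 had the largest differences with SB202190 in immature DC, in a direction shared by 15 of the 17 probes. Its 3 probes were 1.61-fold, 1.48-fold and 1.75-fold higher with SB202190 in immature DC, and ILMN_1254219 was 1.04-fold higher in mature DC, the one probe detected on both arrays that was not lower there. Klk1b5 was 1.44-fold and Klk1b22 1.32-fold higher in immature DC. At the 1.5-fold limit, 2 of 17 probes were higher with SB202190 in immature DC, both of Klk1b9, and 3.29% of all probes detected on both arrays were. The difference between Klk1b9 and the other copies was not tested.

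**Figure D4:**
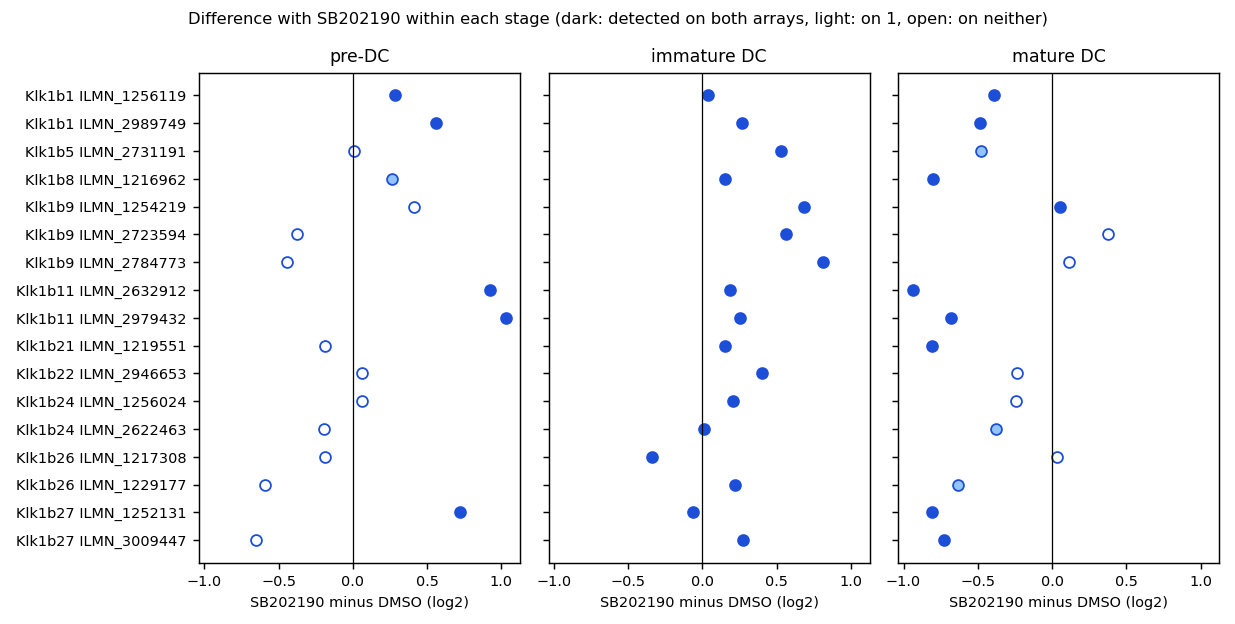
SB202190 minus DMSO on the log2 scale for the 17 probes, 1 panel a stage, with dark points detected on both arrays, light points on 1 and open points on neither. Measured points lie right of 0 in pre-DC, mostly right of it in immature DC, and left of it in mature DC except Klk1b9 ILMN_1254219.

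Of the 12 other kallikrein-related genes on the array, Klk8 and Klk15 were detected, and neither differed 2-fold between pre-DC and immature DC in both treatments. Klk15 was detected on the immature DC arrays alone and read higher there than at the other stages, the same directions as the cluster. Its other values were below background, so no size is given. Klk8 had a log2 difference of -0.48 for immature DC over pre-DC, and was below background on both mature DC arrays. The kininogen genes Kng1 and Kng2, substrates of Klk1, and the kinin receptor gene Bdkrb2 were not detected on any array. Bdkrb1, the inducible kinin receptor, was detected on 1 array, mature DC with SB202190, at an intensity of 138.7. Of the 17 measured genes of the kallikrein-kinin system, 7 were detected and 6 tested, of which 4 were at least 2-fold higher in immature DC than in pre-DC and 1 lower. The higher ones were Ace, the angiotensin-converting enzyme that also breaks down kinins, the peptidase genes Prcp (1.99 on the log2 scale) and Dpp4 (1.80), and Ece1, the endothelin-converting enzyme (1.20). The lower one was Cpm, a membrane carboxypeptidase. Ace was below background on both pre-DC arrays and Cpm on both immature DC arrays, so no size is given for them. With SB202190, 0 of the 6 passed in limma.

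Among growth factor substrates and protease receptors, Egf was not detected. Of the 8 tested genes of that list, 0 were 2-fold higher and 3 at least 2-fold lower in immature DC. These were Mmp9, a gelatinase of granulocytes (-4.02), and the protease-activated receptor genes F2r (-1.82) and F2rl3 (below background in immature DC). Of 8 tested inhibitor genes, 2 were higher and 3 lower by that measure. Serpinb6a (2.47) and Serpinb6b (below background in pre-DC) were higher, and Serpinb1a (-3.17), Slpi (-3.002) and Serpina3f (below background in immature DC) lower.

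Of 10 tested genes for other proteins of the trypsin fold, 6 were at least 2-fold lower in immature DC than in pre-DC in both treatments, and 1 was higher. Of all probes tested, 7.06% were lower by that measure, as were 0 of the 17 cluster probes. The neutrophil protease genes Elane, Prtn3 and Ctsg had log2 differences of -5.68, -5.55 and -5.79, and the basophil protease genes Prss34 and Mcpt8 -3.24 and -2.91. The one higher gene was F7, coagulation factor VII, with 2.01, and F10, coagulation factor X, had 0.75. In limma, 0 genes of these lists passed for SB202190.

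Markers of several cell types also differed between the stages. Of 14 tested DC markers, 13 were at least 2-fold higher in immature DC by the log2 differences as measured. Among them were the class II gene H2-Ab1 and the DC integrin Itgax, the latter below background on both pre-DC arrays. Flt3 was not detected. Of 7 macrophage markers 6 were higher by that measure, and of 9 neutrophil markers 8 were lower. The summed normalized intensity of the neutrophil list was 203118 to 211032 in pre-DC, 42056 to 54609 in immature DC and 15704 to 16096 in mature DC. That of the DC list was 34429 to 45528, then 97896 to 121104, then 108322 to 133148. Of the 7 tested mast cell and basophil markers 6 were lower in immature DC, with Mcpt4, Tpsb2, Tpsab1 and Cma1 not detected, and of 4 eosinophil markers 3 were lower, with Siglecf, Il5ra and Ccr3 not detected. The summed level was 6030 to 6980, 1144 to 1842 and 1233 to 1884 for mast cells and basophils from pre-DC to mature DC, and 8633 to 10454, 3695 to 6096 and 3965 to 4134 for eosinophils. The macrophage list had 2505 to 2793, 12169 to 13060 and 7743 to 9607. Markers of gland epithelium, the classic source of kallikreins, were below background for 11 of 12 genes, Epcam, Krt8 and Krt18 included, and the one detected was Cdh1. The part of the cell mixture in the kallikrein levels was not tested. In such mixed samples, a change in the number of a cell type and in RNA per cell cannot be told apart.

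Among 1424 other genes detected on at least 2 arrays and ranging over at least 2 log2 units, the 8 most like the mean profile of the 17 probes were Ephx1, Cd244a, Susd4, Lyzl4, Abcg1, Fgf13, H2-DMb1 and Egr2. Their Pearson r over the 6 arrays ran from 0.981 to 0.989. Ephx1, a microsomal epoxide hydrolase, had intensities of 363.8 and 301.1 in pre-DC, 2309 and 2095 in immature DC and 748.1 and 510.8 in mature DC. Abcg1, a cholesterol exporter, had 292.9 and 284.5, then 1060 and 1019, then 447.9 and 444.1. H2-DMb1 belongs to the class II peptide-loading machinery and Egr2 is an early response transcription factor. The correlations mostly follow the 3 stages, which all genes share, and 6 points carry little information. The first 8 genes for a single probe held from 0 (Klk1b1 ILMN_2989749 and others) to 5 (Klk1b8) of the 8 named above. Ranked by single probes, Ifi207 came first for both Klk1b1 probes (r = 0.999 for each), for Klk1b11 ILMN_2979432 (0.994) and for Klk1b27 ILMN_1252131 (0.993). Within the cluster, the r of a probe with the mean of the others ran from 0.748 for Klk1b26 ILMN_1217308 to 0.993 for Klk1b8.

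**Figure D5:**
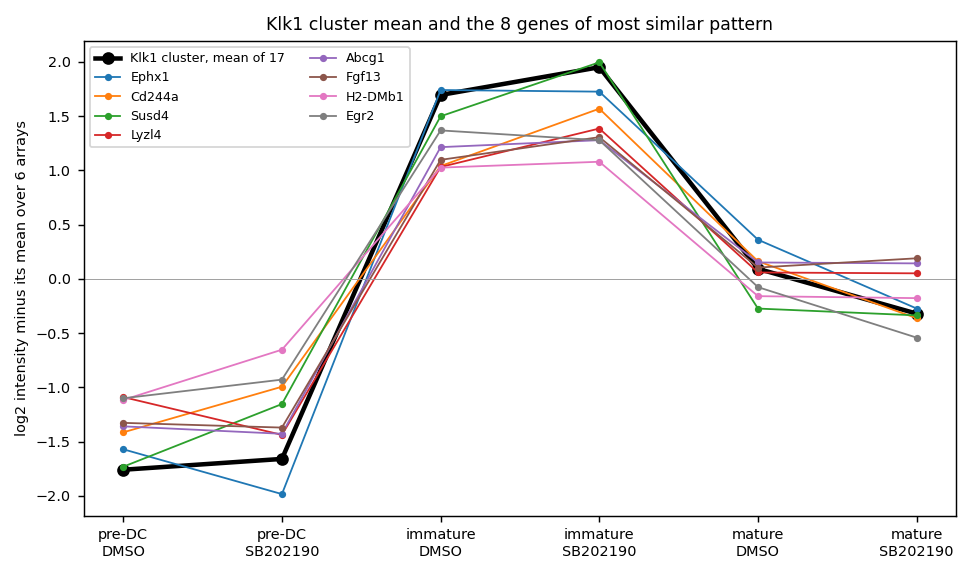
Log2 intensity minus its mean over the 6 arrays, for the mean of the 17 cluster probes (black) and the 8 genes with the highest Pearson r to it. All lines peak on the immature DC arrays, and the r values run from 0.981 to 0.989.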

How the data were processed

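RNA of 6 cultures was hybridised to single-colour Illumina bead arrays of 45281 probes. The authors deposited intensity values without normalization, named average signals in the file headers, and a detection p-value for each probe and array. They also deposited processed intensity values, on a linear scale with values down to -51.1 and column medians from 7.85 to 7.89. These look background-subtracted and quantile normalized, but how they were made is not stated, so they served as an alternative.

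Intensities were corrected with limma 3.58.1 in R 4.3.3 (normexp from the detection p-values, offset 16), then quantile normalized and turned into log2 values. No probe stood for its gene: every probe was kept, except in the lists and the likeness ranking, which used the probe of highest mean. Platform annotation paired 34885 probes with 1 symbol and 18 with several, and 10378 are unnamed here. The treatment was tested in limma with stage as a block over the 16624 probes detected on at least 2 of 6 arrays, with Benjamini-Hochberg adjustment at 0.05. The fit was checked on simulated data. Where no array of one side was above background, a fold is a bound, "at least N-fold", against the higher of the lowest detected signal and the probe's own signal. Where neither side was above background, folds were left out.

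The number of arrays limits the precision, and nothing says that the cultures were independent, so p-values measure only the spread between these arrays. The members, the lists and the limits of 1.25-fold and 1.5-fold were chosen with earlier results of these data known. Named were all cluster probes, listed genes detected on any array, and the 8 genes of most similar profile. Promoters came from RefSeq and were aligned pairwise with Biopython 1.88. Of the 12 measured cluster genes 12 matched a promoter, as did Klk1b3 and Klk1b4.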

Additional observations from a re-analysis of the deposited data

Results flagged for a closer look

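The difference between SB202190 and DMSO had opposite signs in pre-DC and mature DC on 4 probes, each past 1.25-fold in both stages. For Klk1b11 it was 0.93 and -0.94 on the log2 scale (ILMN_2632912) and 1.03 and -0.68 (ILMN_2979432), for Klk1b27 ILMN_1252131 0.72 and -0.81, and for Klk1b1 ILMN_2989749 0.56 and -0.49. With 1 array for each stage and treatment this change of sign was not tested, and probes of near-identical genes are not separate cases.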

How the results depend on the processing

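The count of cluster probes that passed for SB202190 was 0 in all 19 alternatives. Over the whole table the count was also 0, except 2 without background correction and 7 with trend and robust moderation. Between stages, the median log2 difference of the 17 probes was 3.40 for immature DC over pre-DC, -1.84 for mature over immature DC and 1.39 for mature DC over pre-DC. Without background correction these became 1.66, -1.06 and 0.50, in the authors' processed values 1.81, -1.15 and 0.54, and with an offset of 50 the first and last became 2.46 and 0.86. Without 1 array they ran from 3.20 to 3.55, from -2.37 to -1.59 and from 0.97 to 1.60. The direction of all 3 held in the settings named, and larger constants added to dim signals shrink differences by construction. The treatment mean of Klk1b11 ILMN_2632912, 0.06, turned to -0.069 without background correction, -0.013 with an offset of 50, -0.082 with the authors' processed values, -0.37 without the pre-DC pair and -0.0050 without the immature DC pair. Without 1 array it ran from -0.38 to 0.56. That of Klk1b11 ILMN_2979432, 0.20, turned to -0.21 without the pre-DC pair (-0.21 to 0.64 without 1 array), and that of Klk1b27 ILMN_1252131, -0.05, to 0.33 without the mature DC pair (-0.44 to 0.33 without 1 array). That of Klk1b27 ILMN_3009447, -0.37, ran from -0.69 to -0.19 without 1 array and from -0.69 to -0.20 without 1 pair, always below 0, with no limma adjusted p under 0.05. The pre-DC pair of ILMN_3009447 was below background on both arrays, and its immature DC difference was 0.27. The stage pairs differ in sign for these probes, and leaving out a pair moves the mean. Counts within a stage were repeated as alternatives chosen after seeing the data: over probes detected on both arrays of a pair, 8 of 9 were lower in mature DC, 15 of 17 higher in immature DC and 5 of 5 higher in pre-DC in each of 4 settings. The 13 probes 2-fold lower in mature than in immature DC became 7 without background correction and 8 in the authors' processed values, and the 16 higher in immature DC became 10 without background correction. The fit pairs the SB202190 and DMSO arrays of a stage, and without this block the counts for SB202190 were also 0.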
